A study of Rattus norvegicus with 4 samples.

Results

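The Hox genes of the 4 vertebrate clusters and the related homeobox genes Msx1 and Msx2 were followed in the rat uterus on day 5 of pregnancy, before implantation. Members were taken by name. Every probe set whose platform annotation gives a single symbol made of Hoxa, Hoxb, Hoxc or Hoxd and a number was kept, together with Msx1 and Msx2. This gave 33 genes of the 18166 measured, 8 in the Hoxa cluster, 10 in Hoxb, 7 in Hoxc and 6 in Hoxd beside the 2 Msx genes, each read by 1 probe set. The rats were adult Sprague Dawley females of 10 to 12 weeks. On the first day of pregnancy, day 1, the treated rats ate ormeloxifene, 1.25 mg per kg in gum acacia (2 arrays), and the controls received only the vehicle (2 arrays). Ormeloxifene is an oral contraceptive that acts on oestrogen receptors as a selective modulator and is not a steroid. The arrays carry RNA of the uterus, and whether an array holds 1 rat or a pool was not given in the sources used here. In such bulk RNA, fewer cells of a type and less RNA per cell cannot be told apart.

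Hox genes encode homeodomain transcription factors that give cells their position along the body axis, and within a cluster their order on the chromosome follows the order in which they are used from front to back. In the mouse, genes at the posterior end of the Hoxa cluster pattern the Müllerian duct, with Hoxa9 in the future oviduct, Hoxa10 in the uterus, Hoxa11 in the uterus and cervix and Hoxa13 in the cervix and upper vagina. Hoxa10 and Hoxa11 stay active in the adult mouse uterus, where they are needed for implantation and decidualisation, and Msx1 and Msx2 mark the receptive mouse uterus and decline once embryos attach. The comparison asked whether the transcripts of these regulators differed in the uterus of rats that had received the contraceptive.

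No Hox or Msx gene passed the test of ormeloxifene against vehicle. By limma, 0 members passed an adjusted p of 0.05 and 0 had an unadjusted p under 0.05, where the shares over all genes were 0% and 2.20%. The adjusted p was 1.00 for every member. The largest differences were those of Hoxa13, at -0.80 on the log2 scale with ormeloxifene, a dim gene for which most of the gap came from 1 vehicle array, and those of Hoxa10, Hoxd10 and Msx2, at 0.41, 0.41 and 0.40. Intervals were wide, so differences of this size could be neither called nor set aside.

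The promoters of 4 members are shown as a description: Hoxd10 as the member of smallest p, Hoxa13 as the largest difference, and both Msx genes. Sequences are from RefSeq on build GRCr8, and each runs 5′ to 3′ from 250 bases before the gene's start to 50 after it. They lie at chr3:80001697-80001996 (plus strand, Hoxd10), chr4:82691652-82691951 (minus strand, Hoxa13), chr14:77185552-77185851 (plus strand, Msx1) and chr17:11102034-11102333 (plus strand, Msx2). Capitals mark matches on either strand to the TATA box letters TATAAA, the GC box letters GGGCGG, the letters CCAAT, the letters GGTCA of the oestrogen response element, the Meis and Tgif core TGACAG or the letters TTTATTG that Hox proteins bind, and neighbouring matches may overlap.
Hoxd10: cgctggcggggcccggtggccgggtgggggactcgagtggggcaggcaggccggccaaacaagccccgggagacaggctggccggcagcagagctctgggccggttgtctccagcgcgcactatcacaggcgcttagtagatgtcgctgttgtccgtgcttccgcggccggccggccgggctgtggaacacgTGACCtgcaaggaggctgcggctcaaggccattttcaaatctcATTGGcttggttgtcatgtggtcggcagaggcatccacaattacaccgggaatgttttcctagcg
Hoxa13: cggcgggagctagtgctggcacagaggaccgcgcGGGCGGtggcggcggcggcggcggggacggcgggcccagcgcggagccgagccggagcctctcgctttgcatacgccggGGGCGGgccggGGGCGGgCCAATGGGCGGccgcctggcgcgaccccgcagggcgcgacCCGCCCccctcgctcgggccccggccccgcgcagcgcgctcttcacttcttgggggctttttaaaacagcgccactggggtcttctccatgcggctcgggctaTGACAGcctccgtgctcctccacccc
Msx1: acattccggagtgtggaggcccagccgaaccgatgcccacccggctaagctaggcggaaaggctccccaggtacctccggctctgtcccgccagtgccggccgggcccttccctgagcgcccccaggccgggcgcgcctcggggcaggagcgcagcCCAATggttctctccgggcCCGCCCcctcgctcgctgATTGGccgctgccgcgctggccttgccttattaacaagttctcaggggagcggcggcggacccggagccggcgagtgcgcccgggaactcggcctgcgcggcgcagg
Msx2: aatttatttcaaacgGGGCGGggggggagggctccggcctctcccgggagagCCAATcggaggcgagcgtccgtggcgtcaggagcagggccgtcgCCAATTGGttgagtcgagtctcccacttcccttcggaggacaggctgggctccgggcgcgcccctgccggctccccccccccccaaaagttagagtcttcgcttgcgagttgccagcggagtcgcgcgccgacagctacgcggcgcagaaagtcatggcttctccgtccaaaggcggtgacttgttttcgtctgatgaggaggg
The Hoxa13 promoter held 5 GC boxes and the Hoxd10 promoter none, while all 4 held at least 1 CCAAT box. A match to GGTCA was present in the Hoxd10 window and in none of the other three. Of all 33469 promoters of this length, 14.2% held TATAAA, 33.1% GGGCGG, 37.5% CCAAT, 40.5% GGTCA, 19.0% TGACAG and 4.6% TTTATTG. Promoters matched by gene number were at hand for 14 members, of which 2, 9, 11, 8, 1 and 0 held these letters in the same order. The 14 promoters were rich in G and C at a median of 64.5%, against 51.7% over all promoters. Their median number of CG pairs was 26.5, against 7 over all promoters. Such a match is a description of the letters, and its absence says only that they are not in this window.

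Within the Hoxa cluster, 5 of 8 members had a signal above a floor set by genes of another tissue, among them Hoxa9 and Hoxa10. Levels are log2 signals after quantile normalization, and because probes differ in how strongly they bind, the signals of different probe sets describe these arrays and do not rank the amounts of RNA. As a floor, the 95th percentile of the mean signals of 1185 olfactory receptor genes, a family whose known site of expression is mainly the nose, was 6.06, and 18 of the 33 members had a mean above it, 54.5% against 55.2% of all genes. Hoxa10 had a mean of 8.60 over the 4 arrays, at the 92.9th percentile of all genes, and Hoxa9 had 7.19, at the 72.9th percentile. Hoxa5, Hoxa6 and Hoxa7, which act further forward in the embryo, lay between 6.18 and 6.43. Hoxa2 at 5.27, Hoxa4 at 5.45 and Hoxa13 at 4.80 lay under the floor.

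In the Hoxd cluster, 3 of 6 members were above the floor. Hoxd10, a posterior gene that acts in limb, spinal cord and genital tract, had a mean of 9.49, at the 97.1th percentile. Hoxd12 had 5.19 and Hoxd13, a gene of digits and external genitalia, had 4.36, both under the floor. At the front of the cluster, Hoxd4 had 7.12, Hoxd3 had 6.30 and Hoxd1 had 4.64. Hoxd8, Hoxd9 and Hoxd11 were not analysed here.

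In the Hoxb cluster 7 of 10 members were above the floor and in the Hoxc cluster 1 of 7. From Hoxb2 to Hoxb8 the means ran from 6.13 for Hoxb5 to 6.94 for Hoxb7, all above the floor, whereas Hoxb1 at 5.97, Hoxb9 at 5.62 and Hoxb13, a prostate and hindgut gene, at 4.97 were below it. The Hoxc member above it was Hoxc9, at 6.15. Hoxc10 had a mean of 4.34, Hoxc5 of 4.52, Hoxc8 of 4.64 and Hoxc12 of 4.83. Hoxc4 had 5.87 and Hoxc13, known for its part in hair and nail, had 5.78. Both Msx genes were above the floor, Msx1 at 7.70 (82.7th percentile) and Msx2 at 6.21 (48.4th percentile).

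**Figure D1:**
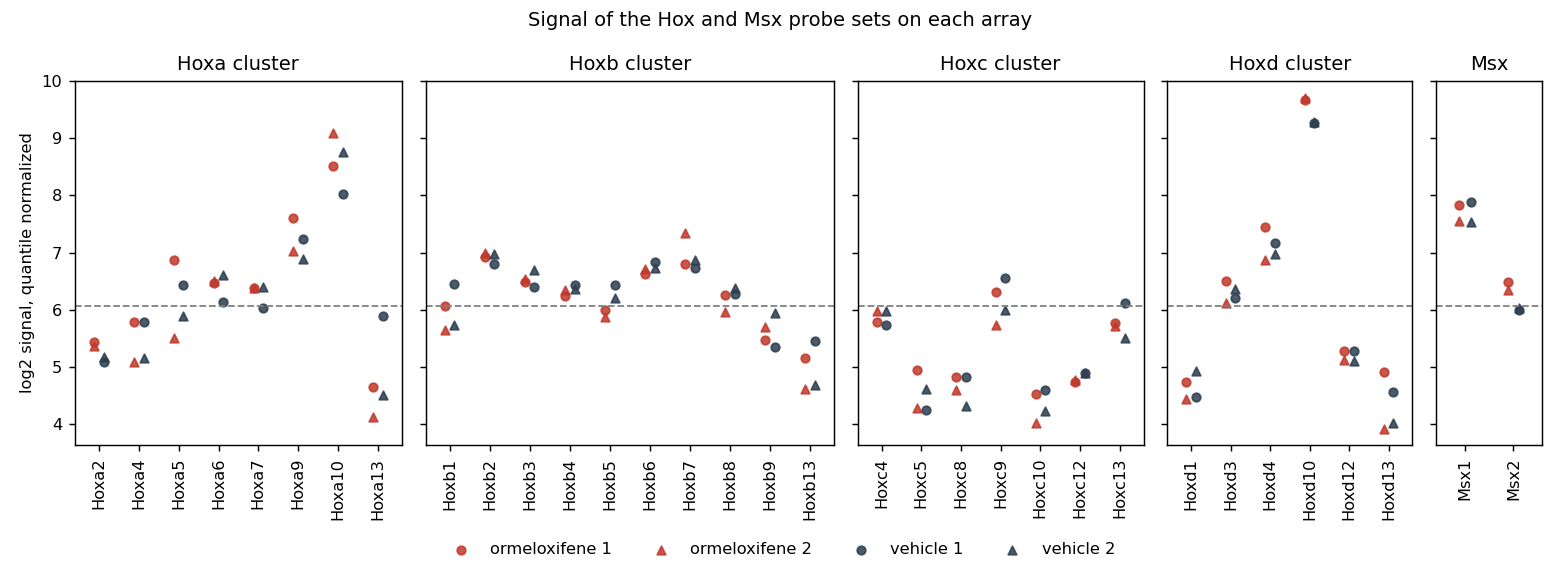
Log2 signal of the 33 Hox and Msx probe sets on each of the 4 arrays, with genes in number order within each cluster on the horizontal axis. Red marks are ormeloxifene and dark marks vehicle arrays, circles are replicate 1 and triangles replicate 2, and the dashed line is the olfactory receptor floor of 6.06. All arrays lie above the line for Hoxa10 and Hoxd10, and 6 of 7 Hoxc genes have a mean below it.

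Taken by position, 9 of 13 members of paralog groups 4 to 8 were above the floor, as were 3 of 6 of groups 1 to 3 and 4 of 12 of groups 9 to 13. The 4 posterior genes above it were Hoxa9, Hoxa10, Hoxc9 and Hoxd10. Gene numbers of 30 members were found in GRCr8. Those of Hoxa2, Hoxa4 and Hoxa10 were not, and since RefSeq lists Hoxa10 among the older names of Hoxa11, that probe set is called Hoxa10 as the platform annotation names it, and its values may be those of Hoxa11. In GRCr8, 9 members overlap another gene, among them Hoxa4, Hoxa5 and Hoxa6 with Hoxa3, and Hoxc4 and Hoxc5 with Hoxc6, so their probe sets may not be independent of those genes.

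Hoxd10 was the member with the smallest p. Its signal was 9.67 and 9.71 with ormeloxifene and 9.28 and 9.29 with vehicle. The arrays of each group lay close together and the groups did not overlap. The difference was 0.41 ± 0.20 (SE, n = 2 arrays a group), or 1.33-fold, with a 95% interval from -0.06 to 0.88 and an adjusted p of 1.00 by limma (0.0797 unadjusted). It was 0.39 within the arrays numbered 1 and 0.42 within those numbered 2. The interval is wide beside the closeness of the arrays because limma moderates each gene's spread by that of all genes.

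Hoxa10, the Hox gene best known for its role in the receptive uterus, differed more between replicate numbers than between groups. Its signal was 8.52 and 9.10 with ormeloxifene and 8.03 and 8.76 with vehicle, so the groups overlapped. Both arrays numbered 2 lay above both arrays numbered 1, by 0.65 on average. The difference by treatment was 0.41 ± 0.31, with a 95% interval from -0.31 to 1.14 and an adjusted p of 1.00 by limma. Between arrays numbered 1 it was 0.49, and between arrays numbered 2 it was 0.34. Leaving out 1 array at a time gave 0.0514 to 0.775.

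Hoxa9, which lies next toward the front of the cluster, also had groups that overlapped. The signal was 7.60 and 7.04 with ormeloxifene and 7.24 and 6.90 with vehicle. Here the arrays numbered 1 were the higher ones, the opposite order to that of Hoxa10. The difference was 0.25 ± 0.26, with a 95% interval from -0.36 to 0.87 and an adjusted p of 1.00 by limma. Within numbers 1 and 2 it was 0.36 and 0.14.

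Hoxa13, the posterior end gene, had the largest difference of the members. Its signal was 4.66 and 4.13 with ormeloxifene and 5.89 and 4.50 with vehicle, under the floor of 6.06 on every array. Vehicle replicate 1 stood 1.24 above the next array, ormeloxifene replicate 1, and the groups overlapped. The difference was -0.80 ± 0.43, with a 95% interval from -1.81 to 0.20 and an adjusted p of 1.00 by limma. Within numbers 1 and 2 it was -1.24 and -0.37. Leaving out vehicle replicate 1 gave -0.11, and leaving out vehicle replicate 2 gave -1.50.

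Msx2, one of the homeobox regulators of uterine epithelium and stroma in the mouse, was 6.48 and 6.34 with ormeloxifene and 5.998 and 6.02 with vehicle. The groups did not overlap, and the vehicle arrays lay just under the floor. The difference was 0.40 ± 0.20, with a 95% interval from -0.08 to 0.87 and an adjusted p of 1.00 by limma (0.0899 unadjusted), and within numbers 1 and 2 it was 0.48 and 0.31. Its partner Msx1 was 7.83 and 7.56 with ormeloxifene and 7.88 and 7.53 with vehicle. The groups of Msx1 overlapped closely, at a difference of -0.01 ± 0.23 and a 95% interval from -0.55 to 0.53. Within numbers 1 and 2 it was -0.05 and 0.03.

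Hoxb5 and Hoxa2 complete the members of smallest p. Hoxb5, a regulator of gut and lung development, was 5.997 and 5.87 with ormeloxifene, under the floor, and 6.44 and 6.21 with vehicle. Its groups did not overlap. Its difference was -0.39 ± 0.21, with a 95% interval from -0.89 to 0.10, and within numbers 1 and 2 it was -0.44 and -0.34. Hoxa2, a gene of hindbrain and branchial arches, was 5.44 and 5.37 with ormeloxifene and 5.08 and 5.18 with vehicle. The Hoxa2 groups did not overlap either, at a difference of 0.27 ± 0.20 (0.35 and 0.19 within numbers) and a signal under the floor.

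Across the 33 members, 17 were higher and 16 lower with ormeloxifene, and the median difference was 0.00, beside 0.02 over all genes. Groups were apart in 8 members, against 25.7% of all genes. Of these, Hoxd10, Msx2 and Hoxa2 were higher (13.9% of all genes) and Hoxb4, Hoxb5, Hoxb6, Hoxb8 and Hoxc12 were lower (11.8% of all genes), and counts of 3 and 5 of 33 are near these shares. Hoxa13 was the 1 member of 33 that differed by more than 0.5, as did 659 of all 18166 genes, a similar share. Each 95% interval reached to either side by a width that ran from 0.47 to 1.01, without adjustment for the number of genes. Differences smaller than that width could not be told from 0 with this number of arrays. To pass the adjusted threshold over all genes, a difference had to be larger still.

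By cluster, Hoxa and Hoxd members were mostly higher and Hoxb members mostly lower. In Hoxa, 6 of 8 were higher, at a median of 0.14, with Hoxa13 and Hoxa4 (-0.03) the exceptions. In Hoxd, 5 of 6 were higher, at a median of 0.06, with Hoxd1 (-0.11) the exception. In Hoxb the median was -0.11 and 8 of 10 were lower, the others being Hoxb7 (0.27) and Hoxb2 (0.07). In Hoxc, 3 of 7 were higher, at a median of -0.08, from Hoxc9 at -0.26 to Hoxc5 at 0.20. Over all genes 53.4% were higher. In none of the 31 Hox genes did the difference pass the test, so these are counts of signs and not of changes. Taken separately in replicate numbers 1 and 2, the Hoxa median was 0.35 and -0.04, and the others were 0.29 and -0.11 for Hoxd, -0.10 and -0.08 for Hoxb and -0.07 and -0.12 for Hoxc.

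**Figure D2:**
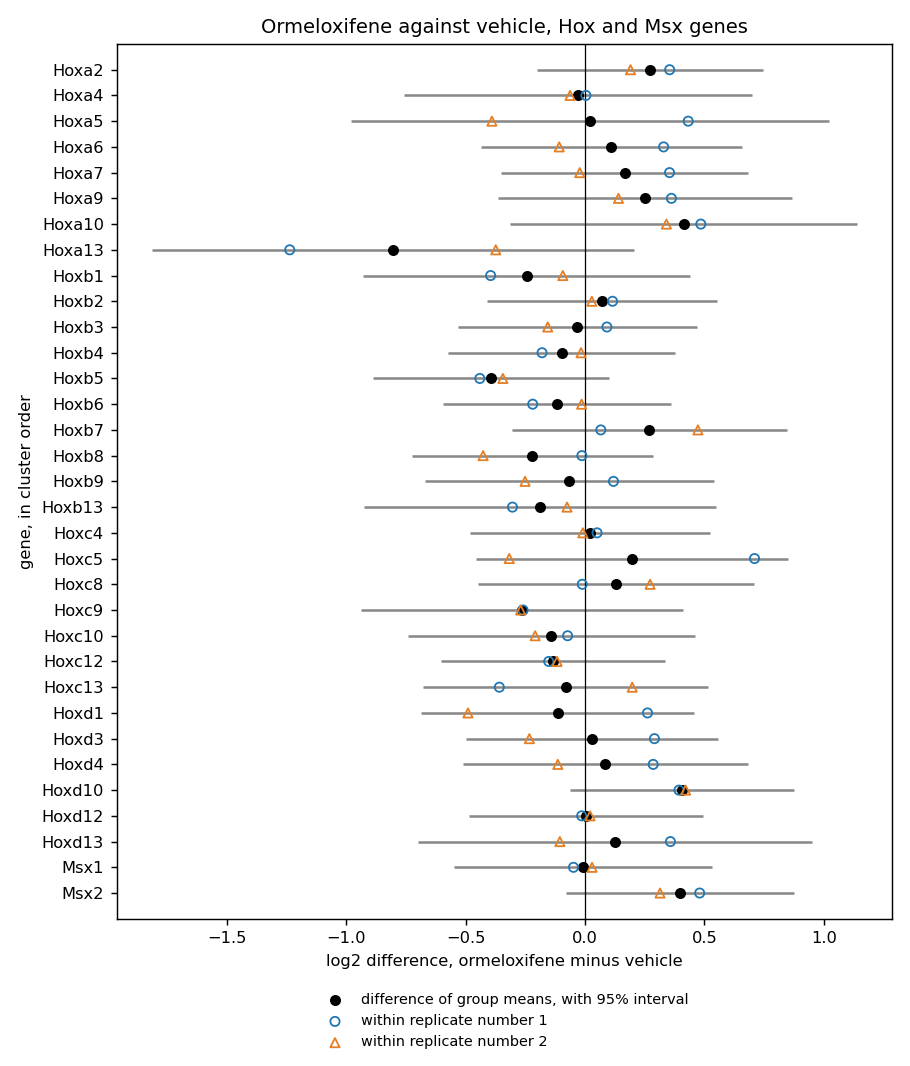
Difference in log2 signal, ormeloxifene minus vehicle, of each Hox and Msx gene on the horizontal axis, with genes listed in cluster order. Black points are differences of group means with limma's 95% interval as a bar, and open circles and triangles are the differences within replicate numbers 1 and 2. Each of the 33 intervals includes 0, and Hoxa13 lies farthest from it at -0.80.

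By position, the median difference was -0.00 in paralog groups 1 to 3, 0.02 in groups 4 to 8 and -0.07 in groups 9 to 13. Posterior genes other than those described above were Hoxb9 (-0.07), Hoxb13 (-0.19), Hoxc10 (-0.14), Hoxc12 (-0.13), Hoxc13 (-0.08), Hoxd12 (0.00) and Hoxd13 (0.13). Central genes ran from Hoxb5 at -0.39 to Hoxb7 at 0.27, with Hoxa5 at 0.02, Hoxa6 at 0.11, Hoxa7 at 0.17, Hoxb4 at -0.10, Hoxb6 at -0.12, Hoxb8 at -0.22, Hoxc4 at 0.02, Hoxc8 at 0.13 and Hoxd4 at 0.09. Anterior genes ran from Hoxb1 at -0.24 to Hoxa2 at 0.27, with Hoxb3 at -0.03 and Hoxd3 at 0.03. The order along the clusters therefore showed no class of genes that lay apart from the others by more than 0.1.

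Most members differed more by replicate number than by treatment. Exactly 488 and 551 deposited values were equal between arrays of the same number and 0 between any other arrays, and the labels name no batch. The difference between number 2 and number 1 was larger in size than that between the groups in 23 of 33 members, 69.7% against 63.9% of all genes. The median size of the difference was 0.25 by number and 0.13 by treatment, beside 0.22 and 0.13 over all genes. In paralog groups 9 to 13 it was larger by number in 10 of 12 members, and number 2 lay below number 1 at a median of -0.39, beside 0.01 over all genes. Members under the floor differed by -0.34 at the median, where all genes under the floor differed by 0.00. Hoxa13 (-0.96), Hoxa5 (-0.96), Hoxd13 (-0.77), Hoxb13 (-0.66) and Hoxa4 (-0.66) were lower in number 2, and Hoxa10 (0.65) and Hoxb9 (0.41) were higher. What the number stands for was not tested.

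**Figure D3:**
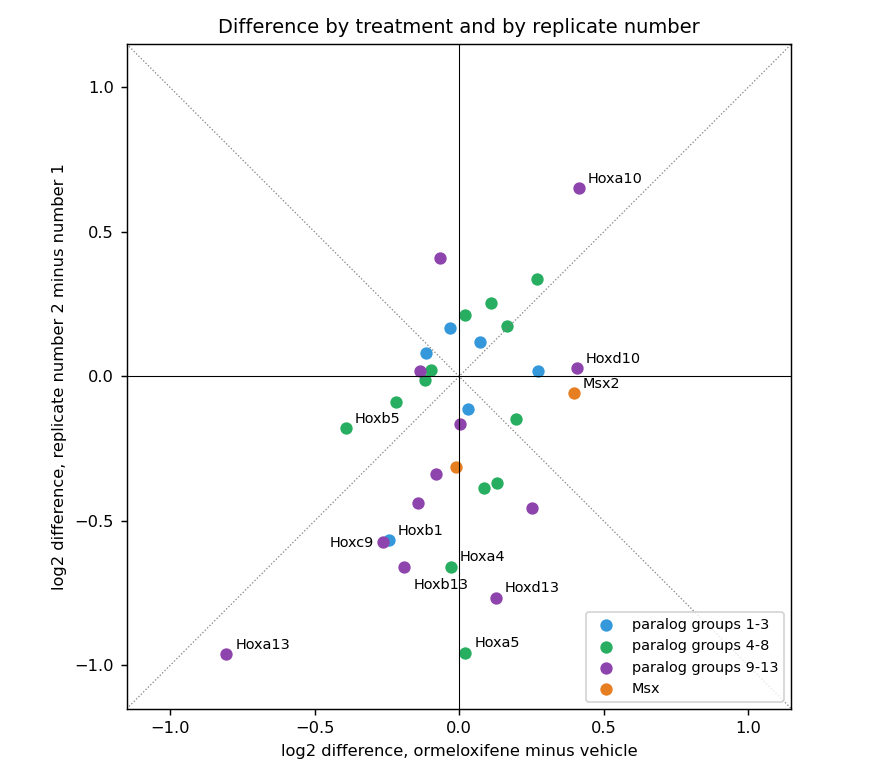
Each Hox or Msx gene is placed by its log2 difference between ormeloxifene and vehicle (horizontal) and between replicate numbers 2 and 1 (vertical), coloured by paralog class. On the dotted diagonals both are of the same size, and 23 of the 33 genes lie in the upper and lower sectors, where number differed more than treatment. Hoxd10 and Msx2 lie near the horizontal axis at 0.41 and 0.40.

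With the number as a block in the limma fit, 0 members passed the adjusted threshold and the smallest adjusted p was 0.522, that of Hoxa13, where 0.0275% of all genes passed. At an unadjusted p under 0.05 stood 5 members, Hoxa13 (0.00671), Hoxa10 (0.0372), Hoxd10 (0.0375), Msx2 (0.0437) and Hoxb5 (0.0444), against 6.76% of all genes. For 1 gene, with 2 arrays a group, an exact permutation test has 0.333 as its smallest p.

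At the posterior end of the Hoxa cluster, transcripts that neighbour the Hox genes were measured as well. The microRNA gene Mir196b lies between Hoxa9 and Hoxa10 in GRCr8, and its probe set read 7.51 and 6.96 with ormeloxifene and 7.20 and 6.88 with vehicle. Relative to each gene's own mean, Mir196b and Hoxa9 differed by at most 0.04 on any array, while Hoxa10 moved the other way between the numbers. The order of arrays in Mir196b and Hoxa9 was not particular to this locus. Mir196c of the Hoxb cluster had the same order. So did Meis1, a gene outside the clusters, at 8.45 and 8.01 with ormeloxifene and 8.14 and 7.87 with vehicle. How often other pairs of genes match as closely was not tested. Hoxa11-as, the antisense RNA of Hoxa11, was 7.94 and 7.47 with ormeloxifene and 7.36 and 7.12 with vehicle, at a difference of 0.46 ± 0.24 and an adjusted p of 1.00 by limma. The groups of Hoxa11-as did not overlap.

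**Figure D4:**
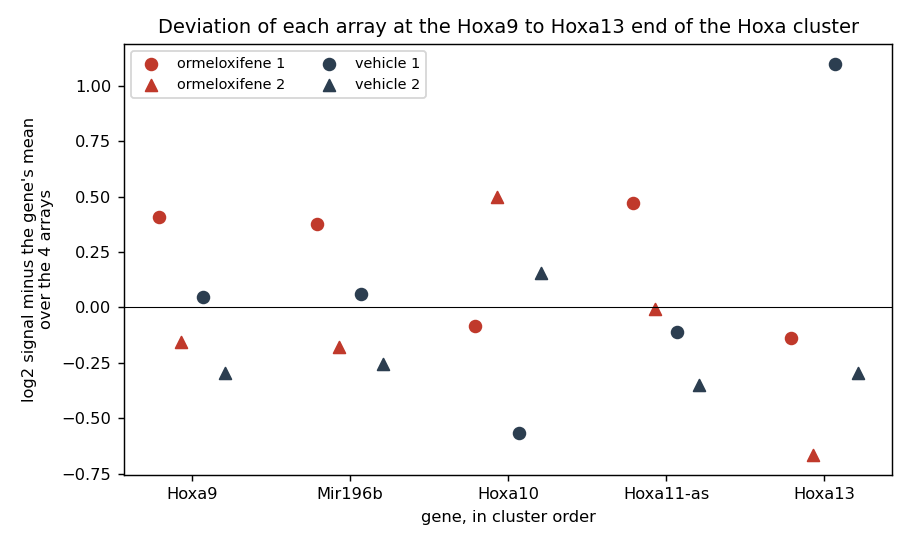
Log2 signal on each array minus the gene's mean over the 4 arrays, for 5 transcripts in their order along the posterior end of the Hoxa cluster. Colours and marks are as for the plot of signals by array. Hoxa9 and Mir196b show the same order of arrays at nearly the same heights, Hoxa10 shows the arrays numbered 2 on top, and vehicle replicate 1 stands 1.10 above the mean at Hoxa13.

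MicroRNAs of the miR-196 family, known to target Hox messages, are encoded in the Hoxa, Hoxb and Hoxc clusters, and their mature forms are shown because they share 1 seed. The capitals mark the seed, bases 2 to 8, and the sequences are from RefSeq on GRCr8, at chr7:135988900-135988921 (plus strand), chr4:82661149-82661170 (minus strand) and chr10:81727561-81727582 (plus strand).
rno-miR-196a-5p: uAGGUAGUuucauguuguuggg
rno-miR-196b-5p: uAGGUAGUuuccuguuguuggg
rno-miR-196c-5p: uAGGUAGUuucguguuguuggg
Any 2 of them differ at 1 base, position 12. Mir196c, next to Hoxb9, read 7.51 and 7.02 with ormeloxifene and 7.45 and 6.69 with vehicle, and Mir196a in Hoxc had a mean of 4.27, under the floor. Whether these probe sets read the mature form or the longer primary transcript, and whether they cross-react, was not tested. Of 6 such microRNA genes measured, 3 were higher and 3 lower, 0 passed the test and 0 had an unadjusted p under 0.05. Mir10a at -0.46 ± 0.28 and Mir615 at 0.40 ± 0.29 were the furthest from 0, both with means under the floor. Within numbers 1 and 2, Mir10a differed by -0.86 and -0.07 and Mir615 by 0.82 and -0.01. Most of each gap came from 1 array, vehicle replicate 1 for Mir10a and ormeloxifene replicate 1 for Mir615.

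Partners and regulators of Hox proteins were followed as lists, and 0 genes of these lists had an unadjusted p under 0.05. The TALE homeodomain proteins bind DNA together with Hox proteins or compete with their partners. Of 10 TALE genes measured 7 were higher and 3 lower and 0 passed the test, at a median of 0.21 beside 0.02 over all genes. Tgif1, a repressor of the group, differed by 0.41 ± 0.21, Pbx3 by 0.35 ± 0.27 and Pknox1 by -0.32 ± 0.21. Meis2 had a mean of 9.38. Of 24 Polycomb and trithorax genes, whose proteins keep Hox clusters silent or active, 15 were higher and 9 lower, at a median of 0.05, and 0 passed. Ezh2, the main methyltransferase of Polycomb complex 2, differed by -0.43 ± 0.22 and its paralog Ezh1 by 0.35 ± 0.22, with Phf1 at 0.33 ± 0.27.

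Genes reported downstream of Hoxa10, Hoxa11 or Msx in the uterus went both ways. Of 16 measured, 8 were higher and 8 lower, at a median of -0.00, and 0 passed the adjusted threshold. Igfbp1, a binding protein of insulin-like growth factors made by decidual cells, read 6.08 and 5.81 with ormeloxifene and 6.62 and 7.36 with vehicle. Its difference was -1.05 ± 0.29 (-0.54 and -1.56 within numbers 1 and 2) at an adjusted p of 1.00 by limma. Igfbp1 was the 1 gene of the list with an unadjusted p under 0.05 by limma, where the share over all genes was 2.20%. The prostaglandin receptor Ptger3 differed by 0.44 ± 0.22 and the ligand Wnt4 by -0.34 ± 0.24. Of 14 homeobox genes at cluster ends or of the Msx, Dlx and ParaHox kind, 9 were higher and 5 lower and 0 passed at the adjusted or unadjusted p, with Cdx2 at -0.31 ± 0.23, Dlx1 at 0.28 ± 0.22 and Cdx4 at 0.26 ± 0.22.

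Markers of uterine epithelium, stroma, smooth muscle and endothelium were above the floor on these arrays, and the gland markers measured were not. All 10 epithelial, 9 stromal, 8 smooth muscle and 4 endothelial markers measured had means above the floor, against 0 of 6 for ovary, 1 of 4 for oviduct, 1 of 5 for cervix and vagina and 3 of 6 for embryo and trophoblast. Markers of gland (0 of 2), erythroid cells (0 of 2), mesothelium (3 of 4) and leukocytes (5 of 8) followed with those counts above it. The difference was above 0 for 8 of 8 smooth muscle markers, at a median of 0.34, and below 0 for 6 of 10 epithelial markers, at a median of -0.11. It was also above 0 for 4 of 4 endothelial markers, at a median of 0.22, and for 7 of 8 leukocyte markers, at a median of 0.18. The same held for 5 of 9 stromal markers (median 0.07) and for 6 of 6 ovary markers (median 0.09), whose means were under the floor. Higher too were 1 of 2 gland, 1 of 2 erythroid, 2 of 4 mesothelium and 2 of 4 oviduct markers. For cervix and vagina it was 1 of 5, and for embryo and trophoblast 4 of 6, beside 53.4% of all genes. By limma 0 markers of any list passed the adjusted threshold. Those with an unadjusted p under 0.05 were the epithelial Elf3 (0.0492 by limma) and the erythroid Hba-a1, where the share over all genes was 2.20%. Of the erythroid markers, Hba-a1, a haemoglobin chain, differed by -0.73 ± 0.21 at an adjusted p of 1.00 by limma (0.0095 unadjusted), with a signal under the floor on every array. The medians of the smooth muscle markers were 10.24 and 9.93 with ormeloxifene and 9.85 and 9.72 with vehicle, and the part of any of these markers in the Hox differences was not tested.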

How the data were processed

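Total RNA of rat uterus was hybridized to Affymetrix whole-transcript arrays, 1 for each of 4 samples labelled as biological replicates. Nothing in the labels says which animals gave a sample, so p-values rest on the spread between these samples. For each gene, limma moderates that spread by the spread of all genes. The authors' software was Affymetrix Expression Console, per the submitters' processing notes. Its version, method and genome build were not given in the sources used here. Deposited values are log2 signals of 36685 probe sets, from 0.92 to 13.59, with array medians from 5.67 to 5.93. The number of arrays limits precision.

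Values were quantile normalized over all probe sets. Platform annotation gave 1 symbol to 18511 probe sets, several to 575 and none to 17599. The brightest probe set of a gene was kept, which left 18166 genes. Differences, ormeloxifene minus vehicle, were tested with limma 3.58.1 in R 4.3.3 (lmFit and eBayes, 2-sided, 2 residual degrees of freedom, 7.55 after moderation) and adjusted by Benjamini-Hochberg over all genes, with a threshold of 0.05. The fit was checked on simulated data. Members, the marker, partner and target lists, and the choice to describe Hoxa9, Hoxa10, Hoxa13, Hoxd10, both Msx genes and the 6 members of smallest p in full were made with earlier results of these data known. The same choice named Hoxa11, Hoxd9 and Hoxd11, for which no values are given under these names. From each list the 3 genes of smallest p are named. Alternatives were other normalizations, probe set averaging, all probe sets, a filter on dim genes, a trended robust fit, the replicate number as a block, and leaving out each array.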

Additional observations from a re-analysis of the deposited data

How the results depend on the processing

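No Hox or Msx member passed the adjusted threshold under any of the 12 alternatives, and the smallest adjusted p of a member was 0.113, that of Hoxa13 with the replicate number as a block on deposited values. The arrays share a number without a stated pairing, and over all genes arrays of the same number correlated at 0.980 and 0.983, against 0.973 and 0.963 for arrays of the same group. Over the members alone these correlations were 0.949 and 0.986, against 0.955 and 0.924. Ormeloxifene 1 and vehicle 2, which share neither, correlated at 0.957 over the members. The median over members moved by less than its spread of 0.20 between arrays. At an unadjusted p under 0.05 by limma stood 5 members with the replicate block, against 6.76% of all genes. With the block on deposited values there were 3, Hoxa13, Hoxa10 and Msx2. The share over all genes was not computed for that setting, so this count cannot be set beside one. Genes called over the whole array were 0 by the reported fit, 1 with median centring, 1 with probe sets averaged, 9 with dim genes left out, 4 with the trended robust fit, 5 with the replicate block, 84 with the block on deposited values, and 0 to 3 when an array was left out. Where dim genes were left out 10020 genes were tested, and the cause of the differences between these counts was not tested for any setting. Signs held for 10 members under all alternatives run on them, but their size moved when 1 array was left out. Hoxa10 ran from 0.0514 to 0.775, Hoxa13 from -1.50 to -0.109 and Hoxb8 from -0.367 to -0.0726. Hoxb5 ran from -0.506 to -0.278, Hoxb4 from -0.149 to -0.0465 and Hoxb6 from -0.174 to -0.059. For Msx2 the range was 0.327 to 0.468, for Hoxa2 0.223 to 0.323, for Hoxd10 0.386 to 0.429 and for Hoxc12 -0.152 to -0.116. The 15 dim members were not in the fit without dim genes. Hoxa4 became 0.0021 on deposited values, with or without the block, and Hoxd12 -0.00083 with median centring. Leaving out each array in turn, where the lone sample is taken to vary like the other group, turned the sign of 23 members, over these ranges of the log2 difference: Hoxa4 -0.38 to 0.32, Hoxa5 -0.66 to 0.70, Hoxa6 -0.12 to 0.35, Hoxa7 -0.015 to 0.35, Hoxa9 -0.032 to 0.53, Hoxb1 -0.60 to 0.12, Hoxb2 -0.0095 to 0.15, Hoxb3 -0.18 to 0.11, Hoxb7 -0.000741 to 0.54, Hoxb9 -0.36 to 0.23, Hoxb13 -0.58 to 0.20, Hoxc4 -0.10 to 0.14, Hoxc5 -0.14 to 0.53, Hoxc8 -0.12 to 0.39, Hoxc9 -0.55 to 0.024, Hoxc10 -0.39 to 0.11, Hoxc13 -0.39 to 0.23, Hoxd1 -0.34 to 0.11, Hoxd3 -0.16 to 0.22, Hoxd4 -0.21 to 0.38, Hoxd12 -0.088 to 0.10, Hoxd13 -0.37 to 0.62, Msx1 -0.19 to 0.17. In each such fit 1 of the 4 samples is missing. The table holds no measure of background, so the dim members carry the weakest evidence.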
